A study of Saccharomyces cerevisiae with 12 samples.

Results

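Calling-card insertions of a Ty5 retrotransposon in Saccharomyces cerevisiae were examined where they lay outside every one of 4532 intergenic regions that the authors listed. An insertion was kept when its position fell in no listed region, start to end inclusive, and the kept insertions were counted in windows of 500 bp. Of 256132 insertions in 12 libraries, 71815 (28.0%) were outside the regions, and they lay in 12113 windows of the 17942 windows that held any insertion. These windows fall into 3 kinds of sequence. The bodies of single genes made up 82.15% of the bases outside the regions, in 4397 gaps between 2 neighbouring regions. Long intervals, in which the list skips several genes in a row, made up 13.83% in 109 gaps with a median length of 10146 bp. Chromosome ends made up 4.02% in 29 gaps, each counted out to its outermost insertion. A window is named by the gene body or the pair of genes that bound its gap, and by its first base in the coordinates of the deposited files, for which no genome build is stated in the sources used here.

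In a calling-card experiment a transcription factor is fused to Sir4, the silencing protein that draws the Ty5 integrase to chromatin, so that Ty5 inserts near the places where the fusion binds. Ty5 inserts beside the bound site rather than in it, and a promoter can therefore leave its insertions in the body of a neighbouring gene. Cbf1 is a basic helix-loop-helix leucine zipper (bHLH-ZIP) protein that binds CACGTG, acts at sulfur and methionine genes and also binds centromeres. Tye7, a bHLH protein that reads a like site, and Gcr1 and Gcr2, which act together, are activators of glycolytic genes. Cst6 is a bZIP protein of the ATF/CREB family, and NPAS2 is a mammalian bHLH protein of the circadian clock.

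Each of the 12 groups held 1 library, so no p-value below carries a replicate check, and all intervals cover counting error only. A p-value compares 2 libraries, a library with its background set, or the 2 ends of genes within 1 library. All strains lacked SIR4, and the host was BY4741 except where stated. Full-length Cbf1 was mapped in sir4D cbf1D cells, full-length Tye7 in sir4D tye7D cells, and Gcr1, Gcr2 and Cst6 in sir4D cells. The Cbf1 bHLH-ZIP, the Cbf1 bHLH without the zipper, the NPAS2 bHLH and the NPAS2 bHLH joined to the Cbf1 ZIP were mapped in sir4D cbf1D cells. A Cbf1 bHLH-ZIP that carried the basic region of Tye7 was mapped in sir4D cbf1D cells of BY4742, so that basic region and strain background cannot be told apart. Tye7 driven by the TEF1 promoter (TEF1p-Tye7) was mapped in sir4D and in sir4D gcr2D cells, whose labels list no TYE7 deletion. Each library began from a single clone grown on galactose for 3 days, then in rich medium for 2 days, and was selected for 3 days. Insertion sites were read after 3 restriction digests and inverse PCR.

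Depth ran from 3341 insertions for the NPAS2 bHLH to 54385 for Cst6. The body of SIR4, deleted in every strain, held 2 insertions in all, and the body of CBF1 held 2 in the 6 cbf1D libraries and 4 in the other 6 libraries. The body of GCR2 held 0 insertions in TEF1p-Tye7 gcr2D and 12 in the 11 other libraries. These counts are too low to tell a deleted from a kept gene.

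The share of a library outside the regions was lower than in its deposited background set in 10 libraries and higher in 2. The background set had 36.2% of its insertions outside the regions, or 36.0% in the set that served Gcr1, Gcr2 and Cst6. The lowest shares were 22.0% for Cbf1 (interval 21.5 to 22.4%), 22.4% for the Cbf1 bHLH-ZIP, 22.4% for the form with the Tye7 basic region and 23.6% for Gcr2. Cbf1 bHLH reached 26.5%, the NPAS2 bHLH 27.7%, Gcr1 29.0%, Cst6 30.6%, Tye7 33.4% and TEF1p-Tye7 33.6%. TEF1p-Tye7 turned to higher than the background when positions within 5 bp were merged (39.0%, adjusted p = 8.64e-06, Fisher's exact test) and without insertions within 200 bp of a region (27.8% against 26.3%, adjusted p = 0.000900). The 2 libraries above their background were the NPAS2 bHLH-Cbf1 ZIP at 38.2% (adjusted p = 0.00789 in a two-sided Fisher's exact test of outside against inside insertions) and TEF1p-Tye7 gcr2D at 38.2% (adjusted p = 1.62e-05). The excess of TEF1p-Tye7 gcr2D did not hold when each position was counted once (36.2%, adjusted p = 0.876, Fisher's exact test). Merging and counting once were applied to the library only, and the background set was left whole. These shares, also that of TEF1p-Tye7 merged, were therefore not set against a background treated alike. Within the Tye7 list, sorted blocks that the labels do not name (called runs here) ranged from 28.6 to 45.0%, and within the Gcr1 list from 24.1 to 36.7%, and both ranges include the background. Without insertions within 200 bp of a region, the NPAS2 bHLH-Cbf1 ZIP had 25.7% outside against 26.3% in the background.

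Libraries differed in the kind of sequence that held these insertions. Long intervals held 19.7% of all insertions of TEF1p-Tye7 gcr2D, 15.8% of TEF1p-Tye7, 14.3% of Gcr1 and 9.78% of Tye7. They held 7.74% for Gcr2, 6.77% for Cst6, 6.55% for the NPAS2 bHLH, 6.40% for Cbf1 bHLH and 6.32% for the form with the Tye7 basic region. The lowest values were 3.88% for Cbf1, 3.48% for the NPAS2 bHLH-Cbf1 ZIP and 3.00% for the Cbf1 bHLH-ZIP. Bodies of single genes held 33.9% of the NPAS2 bHLH-Cbf1 ZIP library, against 13.0% (Gcr1) to 20.9% (Tye7) in the others. Chromosome ends held between 0.735% (NPAS2 bHLH-Cbf1 ZIP) and 3.34% (Cst6).

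**Figure D1:**
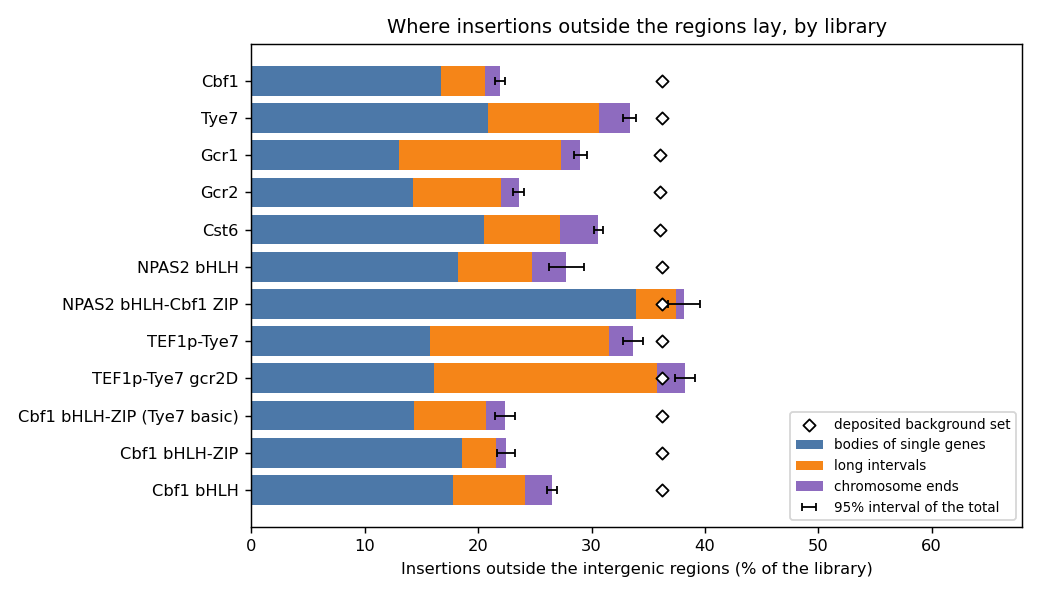
Share of each library's insertions that lay outside the intergenic regions (x axis, % of the library), stacked by bodies of single genes, long intervals and chromosome ends. Horizontal bars are exact 95% intervals of the total and diamonds are the deposited background set. The 4 libraries with the largest long-interval segments are TEF1p-Tye7 gcr2D, TEF1p-Tye7, Gcr1 and Tye7.

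Insertions outside the regions were also concentrated to different degrees. The 5 fullest windows held 40.9% of the outside insertions of the NPAS2 bHLH-Cbf1 ZIP, 39.1% of the Cbf1 bHLH-ZIP and 22.7% of Cbf1. They held 18.0% for TEF1p-Tye7 gcr2D, 17.3% for Cst6, 16.4% for the form with the Tye7 basic region, 15.0% for TEF1p-Tye7 and 11.9% for Gcr1. For Tye7, Gcr2, the NPAS2 bHLH and Cbf1 bHLH they held 4.65 to 6.32%.

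The fullest window of all 6 cbf1D libraries lay in SCS3, which encodes an endoplasmic reticulum protein of lipid droplet formation. The window spans 271500 to 271999 of chromosome 7, and its nearest insertion lay 146 bp to the left of the region between SCS3 and MET13. MET13 encodes a methylenetetrahydrofolate reductase of methionine synthesis, and that region is upstream of it. The window held 1050 insertions of Cbf1 (3.02% of the library), 580 of the Cbf1 bHLH-ZIP (5.60%), 352 of the NPAS2 bHLH-Cbf1 ZIP (7.61%), 181 of the form with the Tye7 basic region (1.94%) and 192 of Cbf1 bHLH (0.549%). The NPAS2 bHLH had 17 insertions there (0.509%), Gcr1 30 (0.128%), Gcr2 41 (0.124%), TEF1p-Tye7 gcr2D 12 (0.0977%), TEF1p-Tye7 9 (0.0786%), Cst6 15 (0.0276%) and Tye7 6 (0.0250%). The 6 highest shares were those of the 6 cbf1D strains, so that genotype and factor cannot be told apart across that border, but among those 6 strains the share still ranged from 0.509 to 7.61%. In Cbf1 the runs gave 2.42 to 4.58%.

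The body of SCS3 was used far more than the listed region beside it. Cbf1 had 1445 insertions in the 1141 bp body and 109 in the region, the Cbf1 bHLH-ZIP 769 and 48, and the NPAS2 bHLH-Cbf1 ZIP 467 and 31. The form with the Tye7 basic region had 228 and 60, Cbf1 bHLH 249 and 29, and the NPAS2 bHLH 19 and 2. A count limited to the listed regions therefore leaves out most insertions at this locus: the body held 13.3 times the region's count in Cbf1 and 15.1 times in the NPAS2 bHLH-Cbf1 ZIP. In all 6 cbf1D libraries, and on few insertions in Tye7 (4) and TEF1p-Tye7 gcr2D (8), the fullest 50 bp bin of the gene lay 151 to 200 bp from the region. It held 279 insertions of Cbf1, 145 of the Cbf1 bHLH-ZIP, 101 of the form with the Tye7 basic region, 81 of Cbf1 bHLH, 58 of the NPAS2 bHLH-Cbf1 ZIP and 4 of the NPAS2 bHLH. Cst6 had 120 insertions in the body, but 67 of them were in the bin 801 to 850 bp from the region. The Cbf1 insertions of the window lay at 331 distinct positions and carried 19.1% of all reads of that library.

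**Figure D2:**
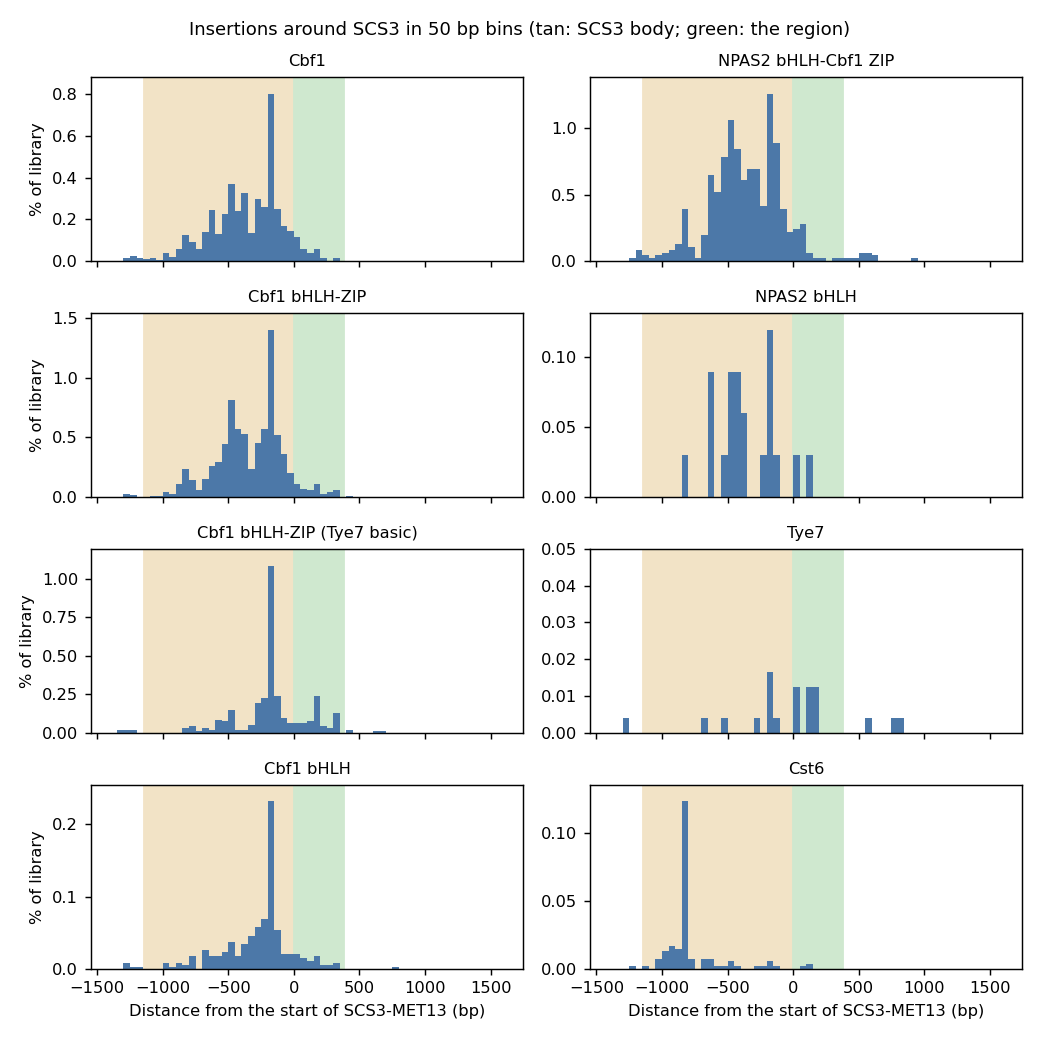
Insertions around the left edge of the region between SCS3 and MET13 in 50 bp bins, with distance from that edge on the x axis (bp, negative inside SCS3) and the share of the library on the y axis (%), in 8 libraries, each panel with its own y scale (tan, SCS3; green, the region). The fullest bin of the cbf1D libraries is 151 to 200 bp inside SCS3, and Cst6 has its fullest bin 801 to 850 bp away.

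Other windows with many Cbf1 insertions also lay in genes that neighbour a promoter. An exception was its 5th fullest window, with 132 insertions, in the long interval from NCE103 to SIW14. TDP1, a tyrosyl-DNA phosphodiesterase gene, had 81 insertions of Cbf1, 65 of the Cbf1 bHLH-ZIP, 46 of Cbf1 bHLH, 21 of the form with the Tye7 basic region and 13 of the NPAS2 bHLH-Cbf1 ZIP in the window from 668500 of chromosome 2. The window of SHU1, a gene of homologous recombination, from 98500 of chromosome 8 had 121, 74, 77, 20 and 19 in the same order. These libraries held 34773, 10350, 34942, 9315 and 4623 insertions in that order, so the counts do not rank them by share. No other library had more than 3 insertions in either window. SCM4, a mitochondrial outer membrane protein gene, had 155 insertions of Cbf1, 29 of the Cbf1 bHLH-ZIP, 27 of Cbf1 bHLH and 30 of Cst6 from 591500 of chromosome 7. The 200 bp flanks of the region between SHU1 and MRP4 held 113 insertions of Cbf1 and 5 of the background set, 67.5-fold more per insertion (28.1 to 212). For the region between SCS3 and MET13 the flanks held 477 and 16, 89.1-fold more (54.3 to 157).

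**Figure D3:**
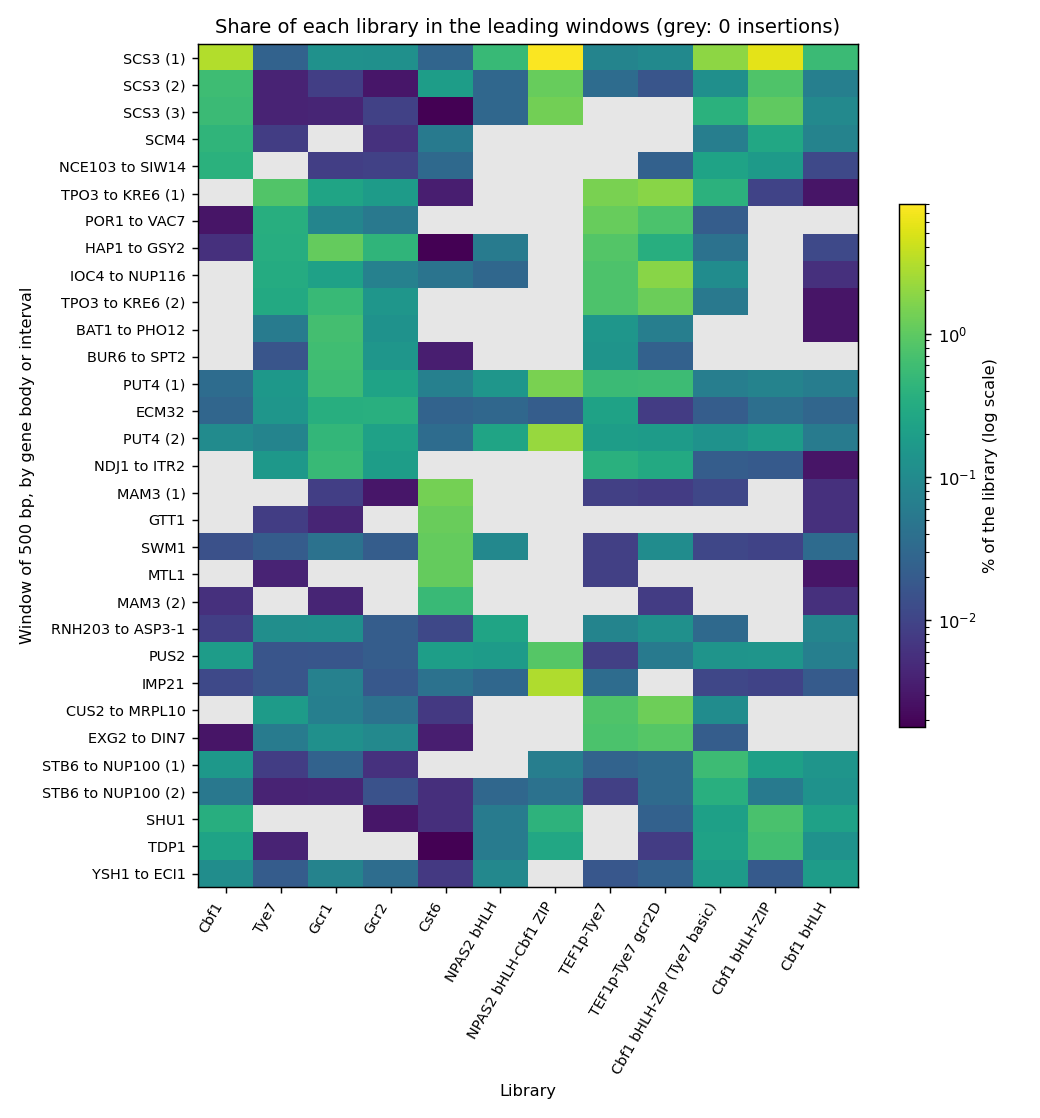
Share of each library (colour, % of the library on a log scale, grey for 0 insertions) in 31 windows (rows) that were among the 5 fullest of some library. The libraries of Cbf1 and its forms and of the NPAS2 bHLH-Cbf1 ZIP share the SCS3, SHU1 and TDP1 rows, while the Tye7, Gcr1 and Gcr2 libraries share rows of long intervals.

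All 5 of the fullest windows of Tye7, TEF1p-Tye7 and TEF1p-Tye7 gcr2D lay in long intervals, as did 4 of the 5 of Gcr1 and 2 of the 5 of Gcr2, whose other 3 were in ECM32 and PUT4. In the interval from TPO3 to KRE6 on chromosome 16, the window from 855500 held 197 insertions of Tye7, 167 of TEF1p-Tye7, 220 of TEF1p-Tye7 gcr2D, 57 of Gcr1, 60 of Gcr2 and 37 of the Cbf1 form with the Tye7 basic region. Cbf1 and both NPAS2 libraries had 0 there, Cst6 had 2, and the Cbf1 bHLH-ZIP and the Cbf1 bHLH had 1 each. The whole interval held 3.25% of TEF1p-Tye7 gcr2D, 2.32% of TEF1p-Tye7, 1.24% of Tye7, 0.904% of Gcr1, 0.512% of Gcr2 and 0.069% of Cbf1. Further leading windows were POR1 to VAC7 (519500 of chromosome 14, with 83 insertions of Tye7, 132 of TEF1p-Tye7 and 91 of TEF1p-Tye7 gcr2D), IOC4 to NUP116 (362000 of chromosome 13, with 76, 88 and 218) and CUS2 to MRPL10 (101500 of chromosome 14, with 44, 91 and 154). The fullest window of Gcr1 and Gcr2 was HAP1 to GSY2 (651000 of chromosome 12, with 259 and 144 insertions), where Tye7 had 80 and Cbf1 2.

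Of 109 long intervals, 56 held a tRNA gene by the R64 gene order, 73 of the 275 tRNA genes in all. Gaps of single genes hold 1 gene by definition, so they cannot hold a second one. R64 lists 39 protein-coding models of 5000 to 5500 bp that have no symbol and contain another such model, a layout known from the retrotransposons Ty1 and Ty2. These nested pairs, which the definition places outside gaps of single genes, lay in 35 of the 109 long intervals, and 29 of those 35 also held a tRNA gene. The division by nested pair was chosen after the values were seen. As background, Tye7 was first described through its effect on genes under the control of Ty1, and Gcr1 is known to act on Ty2.

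Insertions per kb per 10000 insertions of the library were 2.77 in intervals with a nested pair against 0.934 in those without for TEF1p-Tye7 gcr2D. The same densities were 2.19 and 0.774 for TEF1p-Tye7, 1.87 and 0.779 for Gcr1, 0.935 and 0.774 for Tye7, and 0.758 and 0.600 for Gcr2. They ran the other way for Cbf1 (0.150 and 0.462), Cst6 (0.320 and 0.765), the Cbf1 bHLH-ZIP (0.139 and 0.342), Cbf1 bHLH (0.348 and 0.692), the form with the Tye7 basic region (0.329 and 0.694) and the NPAS2 bHLH (0.374 and 0.696). The NPAS2 bHLH-Cbf1 ZIP gave 0.428 and 0.209, on 95 insertions of which 51 were in 1 window of the interval from NSR1 to TIF4631. Intervals with a nested pair held 13.3% of all insertions of TEF1p-Tye7 gcr2D, 10.5% of TEF1p-Tye7 and 8.99% of Gcr1, but 0.722% of Cbf1. Intervals that held a tRNA gene but no nested pair had 1.13 for TEF1p-Tye7, 1.17 for TEF1p-Tye7 gcr2D, 1.21 for Gcr1, 0.893 for Tye7 and 0.781 for Gcr2, and those with neither had 0.464, 0.726, 0.406, 0.671 and 0.443. Tye7 thus had close densities with a nested pair and with a tRNA gene alone, and Gcr2 had a higher one with a tRNA gene alone. How reads that match several copies of a repeat were placed was not stated in the sources used here, and its part in these densities was not tested.

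**Figure D4:**
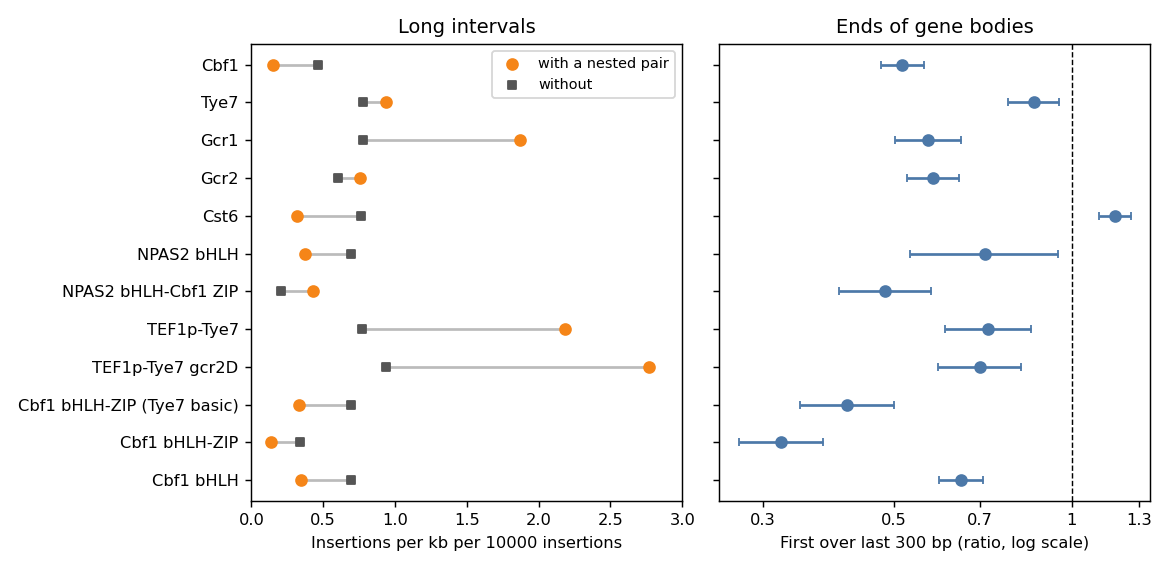
Left, insertions per kb per 10000 insertions of each library in long intervals with (circles) and without (squares) a nested pair of gene models. Right, insertions in the first over the last 300 bp of gene bodies (ratio on a log scale) with exact 95% intervals. TEF1p-Tye7 gcr2D has the highest density with a nested pair (2.77), and Cst6 is the only library with a ratio above 1 (1.18).

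Of the 5 fullest windows of Cst6, 4 lay in bodies of single genes and 1 in a chromosome-end gap. MAM3, a gene of mitochondrial form that is divergent from the glycerol-3-phosphate dehydrogenase gene GPD2, had 756 insertions from 215500 of chromosome 15, and no other library had more than 2 there. The chromosome-end gap beyond GTT1, a glutathione transferase gene, had 636 from 427500 of chromosome 9, 3694 to 4129 bp from its nearest region. MTL1, a cell wall stress sensor gene, had 597 from 529500 of chromosome 7. In both windows any other library had at most 2. SWM1, a gene of the anaphase-promoting complex, had 597 from 976500 of chromosome 4, against 13 in TEF1p-Tye7 gcr2D, 12 in Cbf1 bHLH and 10 or fewer elsewhere. LYS9, a lysine synthesis gene, had 219 Cst6 insertions from 715000 of chromosome 14. Relative to the background set, the 200 bp flanks of the region between MAM3 and GPD2 held 357 insertions of Cst6 against 4, 138-fold more.

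In bodies of single genes, within 100 bp of a region that its factor bound, density was many times that beside regions not bound. A region was called bound from the authors' Poisson p-value (adjusted p under 0.01 and at least 5 insertions). Per kb per 10000 insertions the densities at 1 to 100 bp were 8.25 and 0.267 for Cst6, 5.02 and 0.273 for Gcr1, 4.90 and 0.478 for Tye7, 4.65 and 0.260 for Cbf1, and 3.99 and 0.307 for Gcr2. At 501 to 1000 bp they were still 2.38 and 0.116 for Cst6, 1.21 and 0.0965 for Cbf1, and 0.739 and 0.251 for Tye7. Cbf1 had its highest density, 6.30, at 101 to 200 bp, on 728 insertions. Of these, 279 lay in 1 bin of SCS3, 151 to 200 bp from the region between SCS3 and MET13. That peak thus rests in large part on 1 gene. All Cbf1 insertions in SCS3 lay at a median of 356 bp. The call of a region rests on insertions of the same library inside the region, so these densities are a description.

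**Figure D5:**
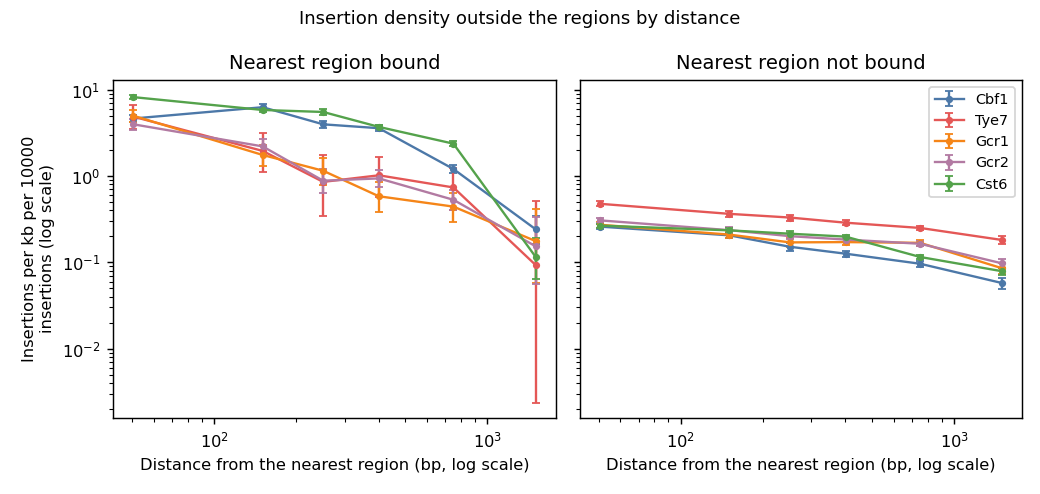
Insertions per kb per 10000 insertions outside the regions (y axis) by distance from the nearest region edge (x axis, bp) for the 5 full-length factors, beside bound regions and beside regions not bound. Bars are exact 95% Poisson intervals, both axes are logarithmic, and density beside bound regions is above that beside others at every distance quoted in the text. At 1001 to 2000 bp Tye7 runs the other way, with 0.0932 on 1 insertion beside bound regions and 0.182 beside others.

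Insertions in gene bodies were unevenly placed along the gene. Over 2875 bodies of at least 1000 bp, the first 300 bp held fewer insertions than the last 300 bp in 11 libraries, with ratios from 0.322 for the Cbf1 bHLH-ZIP to 0.862 for Tye7. Cbf1 gave 0.517 (0.474 to 0.562, adjusted p = 5.92e-55, two-sided exact binomial test), Gcr1 0.571 and Gcr2 0.582. The test counts each insertion as independent, although insertions lay in dense clusters, so its p-values do not measure a trend over genes. Only Cst6 had more in the first part, with a ratio of 1.18 (1.11 to 1.26, adjusted p = 1.18e-07, exact binomial test). The Cst6 value did not pass when genes beside a bound region were left out (1.05) or when each position was counted once (1.02), and it reversed when positions within 5 bp were merged (0.893). Merging also ended the call for Cbf1 (0.952), the Cbf1 bHLH-ZIP (0.943) and Tye7 (0.901), and turned the NPAS2 bHLH-Cbf1 ZIP (1.26).

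In 9 comparisons, a test was made of each window with at least 10 insertions in the pair. A window was called at an adjusted p under 0.05 in a two-sided Fisher's exact test and a share at least 2-fold different. Comparisons that share a library (Cbf1 in 3, Tye7 in 2, TEF1p-Tye7 in 2, the Cbf1 bHLH-ZIP in 3) are not independent of each other. Merging positions within 5 bp, which collapses densely hit windows, kept 197 of the 476 calls and turned 22, among them SCS3 from 271500 in 3 comparisons. With each position counted once, 430 calls were kept and 0 turned.

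Tye7 was compared with Cbf1 to set factors with like DNA sites side by side. Of 158 windows tested, 36 were higher in Tye7 (22.8%) and 44 lower (27.8%), 50.6% in all. Of 68 windows in long intervals, 25 were higher and 10 lower. Of 68 windows in bodies of single genes, 7 were higher and 31 lower. Higher in Tye7 were TPO3 to KRE6 from 855500 (at least 95.1-fold, exact test, adjusted p = 1.18e-75), POR1 to VAC7 (120-fold, 21.0 to 4806), HAP1 to GSY2 from 651000 (57.9-fold, 15.5 to 487), IOC4 to NUP116 (at least 36.7-fold) and CUS2 to MRPL10 (at least 21.2-fold). Lower in Tye7 were SCS3 from 271500 (121-fold, 55.3 to 330, exact test, adjusted p = 1.08e-227), TDP1 (55.9-fold, 9.76 to 2235), SCM4 (53.5-fold, 14.6 to 446) and SHU1 (at least 27.8-fold). All runs of one library lay apart from all runs of the other in 40 of the 80 called windows, 14 of them higher and 26 lower, and HAP1 to GSY2 was not among them.

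The Cbf1 bHLH-ZIP differed from full-length Cbf1 in few windows. Of 98 tested, 2 were higher (2.04%) and 1 lower (1.02%), 3.06% in all. TDP1 was 2.70-fold higher (1.91 to 3.78), SHU1 was 2.05-fold higher, and the window from 560500 of chromosome 14 in NCE103 to SIW14 was 2.18-fold lower.

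The leading Cbf1 windows had lower shares without the zipper. Of 106 windows tested in Cbf1 bHLH against Cbf1 bHLH-ZIP, 3 were higher (2.83%) and 14 lower (13.2%), 16% in all. SCS3 from 271500 was 10.2-fold lower without the zipper (8.65 to 12.1, exact test, adjusted p = 4.44e-210). EMI1 to GRX2 was 30.4-fold lower (9.35 to 156), on 3 insertions against 27, and MET10, a sulfite reductase gene, was at least 20.3-fold lower, on 0 against 18. YSH1 to ECI1 was 9.77-fold higher (2.60 to 82.4).

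With the Tye7 basic region, the Cbf1 bHLH-ZIP had lower shares in leading gene bodies and higher shares in windows of long intervals. Of 48 windows tested, 14 were higher (29.2%) and 7 lower (14.6%), 43.8% in all, and all 7 lower windows were in bodies of single genes. In long intervals 10 of 16 tested were higher and 0 lower. SCS3 from 271500 was 2.88-fold lower (2.44 to 3.43, exact test, adjusted p = 8.65e-41), SHU1 3.33-fold lower, TDP1 2.79-fold lower and MET10 at least 5.4-fold lower. TPO3 to KRE6 from 855500 was 41.1-fold higher (6.93 to 1667), on 37 insertions against 1. The 2 runs with the Tye7 basic region gave 0.0603 and 0.784% in that window, so its fold rests mainly on 1 run. NCE103 to SIW14 from 567000 of chromosome 14 was 28.9-fold higher (4.75 to 1184), and ERR2 to SAM3 was 11.1-fold higher (3.46 to 56.9). The body of ZWF1, the glucose-6-phosphate dehydrogenase gene, was at least 4.07-fold higher.

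For the NPAS2 bHLH-Cbf1 ZIP against the NPAS2 bHLH, 31 windows passed the minimum of 10 insertions, 26 of them called higher (83.9%) and 0 lower, and 26 had an unadjusted p under 0.05. The minimum decides this count: 27 of the 31 reached it in the library with the ZIP and 1 in the NPAS2 bHLH library, which is the shallowest. The windows below are therefore a description of those that the library with the ZIP filled. The window from 54000 of chromosome 9 in IMP21, a gene of sugar use beside the glycerol-3-phosphate dehydrogenase gene GUT2, held 136 insertions with the ZIP and 1 without, 98.3-fold higher (17.3 to 3910, exact test, adjusted p = 3.46e-30). PUT4, the proline permease gene, held 102 with the ZIP and 8 without from 988000 of chromosome 15. PUS2, a pseudouridine synthase gene, was at least 12.8-fold higher in 1 window. Another window of PUS2, from 384500 of chromosome 7, held 6 insertions of the NPAS2 bHLH, so the gene was not empty without the ZIP. YAT1, a carnitine acetyltransferase gene, was at least 9.39-fold higher from 191000 of chromosome 1. Cbf1 had few insertions in IMP21 and YAT1: IMP21 had 4 insertions of Cbf1 and 1 of the Cbf1 bHLH-ZIP, and YAT1 had 2 and 4. SCS3 from 272000 was 44.8-fold higher (7.75 to 1798).

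Tye7 from the TEF1 promoter gave higher shares than the Tye7 library in windows of long intervals. Of 85 windows tested, 26 were higher (30.6%) and 1 lower (1.18%), 31.8% in all, and 22 of the 26 were among 59 tested in long intervals. The strains also differ in TYE7, which is deleted in the Tye7 strain, so promoter and genotype cannot be told apart. THI72 to PEX27 from 709000 of chromosome 15 was 40.9-fold higher (10.6 to 349), on 39 insertions against 2, and ECM21 to ATP1 at least 21.7-fold higher. EXG2 to DIN7 from 981500 of chromosome 4 was 12.9-fold higher (7.27 to 24.5, exact test, adjusted p = 9.01e-27), and CUS2 to MRPL10 from 101500 was 4.33-fold higher (2.99 to 6.36).

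TEF1p-Tye7 in gcr2D cells differed from TEF1p-Tye7 in 16 of 83 windows (19.3%), 11 higher (13.3%) and 5 lower (6.02%). ECM32, a helicase gene beside the 14-3-3 gene BMH1, was 27.9-fold lower (4.58 to 1143), on 1 insertion against 26. HAP1 to GSY2 was 2.42-fold lower from 651000 (1.67 to 3.55) and 24.7-fold lower from 650500 (4.01 to 1016). In ECM32 from 544500 of chromosome 5, Gcr2 had 120 insertions (0.361% of its library), Gcr1 83 (0.354%), Tye7 36 (0.150%), Cst6 14 (0.0257%) and Cbf1 10 (0.0288%). Higher without GCR2 were PDR3 to UTP20 (3.44-fold, 1.84 to 6.93), GTO3, a glutathione transferase gene (4.51-fold, 1.84 to 13.3), and CUS2 to MRPL10 from 101000 (3.88-fold, 1.56 to 11.6).

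Of the 5 fullest windows of Gcr1 and the 5 of Gcr2, 2 were the same, HAP1 to GSY2 from 651000 and PUT4 from 987500. Of 186 windows tested, 49 were higher in Gcr1 (26.3%) and 1 lower (0.538%), 26.9% in all, and 38 of the 49 were in long intervals. IOC4 to NUP116 from 362500 was 8.05-fold higher (4.70 to 14.7), PRP39 to RRN11 11.8-fold higher (5.05 to 33.7) and ORM1 to KSS1 from 567000 of chromosome 7 6.20-fold higher (3.36 to 12.4). The lower window, ERR2 to SAM3, held 0 insertions of Gcr1 and 14 of Gcr2, at least 3.30-fold lower. SPC97, a spindle pole gene beside the enolase gene ENO2, held 46 insertions of Gcr1 and 58 of Gcr2 from 450500 of chromosome 8, 10 of Tye7 and 0 of Cbf1. These are counts from libraries of 23460, 33197, 24003 and 34773 insertions in that order. In Gcr1 against Gcr2 the SPC97 window was not called. The 200 bp flanks of the region between SPC97 and ENO2 were 33.7-fold above the background set in Gcr1 and 30.4-fold in Gcr2.

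Cst6 differed from Cbf1 in 236 of 312 windows (75.6%), 181 higher (58%) and 55 lower (17.6%). Of the 312 windows, 227 reached the minimum in Cst6, the deeper library, and 73 in Cbf1, which favoured higher calls. The higher windows named next had no insertion of Cbf1 and passed the minimum through Cst6 alone. MAM3 was at least 161-fold higher (exact test, adjusted p = 1.12e-161), GTT1 at least 136-fold, MTL1 at least 127-fold and LYS9 at least 46.7-fold. SCS3 from 271500 was 109-fold lower (66.1 to 196) and TDP1 127-fold lower (22.1 to 5065).

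Windows within 1000 bp of the upstream regions of 32 sulfate and methionine genes were compared in turn. Of 9 such windows tested in Tye7 against Cbf1, 7 were lower and 0 higher, where 27.8% of all windows were lower, with a median log2 ratio of -2.71 against 0.03 over all windows tested. The lower windows included MET10, MET5, a sulfite reductase subunit gene, MET28, a bZIP cofactor gene of Cbf1, and the bodies of IML1, beside MET5, and HIR3, beside the homoserine dehydrogenase gene HOM6. IML1 from 684500 of chromosome 10 held 41 insertions of Cbf1 and 0 of Tye7 (at least 9.43-fold lower), and HIR3 from 690500 held 38 and 0 (at least 8.74-fold lower). Both passed the minimum through Cbf1 alone and so could not be called higher. Of all 158 windows tested, 48 reached the minimum in Tye7 and 73 in Cbf1, so the contrast with all windows is a description. MET10 had no insertion of Cbf1 bHLH and likewise passed through the Cbf1 bHLH-ZIP alone in the next comparison. In Cbf1 bHLH against Cbf1 bHLH-ZIP, 3 of 4 tested were lower and 0 higher (MET10, IML1 and HIR3), where 13.2% of all windows were lower, with a median of -2.42 against 0.12. With the Tye7 basic region against the Cbf1 bHLH-ZIP, 1 of 4 was lower (MET10) and 0 higher, with a median of 0.85 against 0.49. In the Cbf1 bHLH-ZIP against Cbf1, 0 of 7 were called, with a median of -0.08 against 0.16. In Gcr1 against Gcr2 the 1 window tested, in MET28, was higher. In Cst6 against Cbf1, 7 of 8 were lower, where 17.6% of all windows were lower, and 1 higher (STR3, the cystathionine beta-lyase gene), with a median of -4.77 against 2.35. MET13, beside SCS3, was not on the list.

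Insertions within 1000 bp of the upstream regions of 27 glycolytic and fermentation genes came largely from 1 or 2 loci. In Cst6 they were 2.45% of the library, with 1242 of 1334 beside the region between MAM3 and GPD2. In the NPAS2 bHLH-Cbf1 ZIP they were 1.47%, with 67 of 68 beside the region between PYK2 and PUT4. Beside that region also lay 173 of 289 in Gcr1 (1.23% of the library) and 99 of 137 in TEF1p-Tye7 (1.20%). The region itself held 1 insertion of Gcr1 and 4 of the NPAS2 bHLH-Cbf1 ZIP and was not bound in these 2 libraries. Insertions of the PUT4 window from 987500 lay in the body of PUT4, at least 604 bp from the region. The bodies of the genes themselves held at most 0.187% in any library (Gcr2). In Tye7 against Cbf1, 3 of 3 windows tested were higher, against 22.8% of all windows: SPC97, beside ENO2, and both windows of PUT4, beside the pyruvate kinase gene PYK2, from 987000 and 987500. In Cst6 against Cbf1, 4 of 6 were higher and 0 lower, 3 of them in MAM3 and 1 in MPE1, where 58% of all windows were higher. In Gcr1 against Gcr2, 2 of 7 were higher, both in PUT4, and 0 lower, a share near the 26.3% of all windows. Of the other 6 lists, histone genes had 2 called windows (PLB3, higher in Cst6), ribosomal protein genes 1 (RPL2A, higher in Cst6), and highly transcribed factors and chaperones had SPC97 and MPE1 again. Galactose genes and silencing loci had 0 windows tested in every comparison, so no call was possible there. The deletion and marker loci had 1 tested window beside an upstream region in Tye7 against Cbf1. They also had 1 in TEF1p-Tye7 against Tye7 and 1 in Gcr1 against Gcr2, and none of these was called.

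Some windows were used by every full-length factor. In 10 windows each of the 5 libraries had at least 10 insertions. They were the SWH1 end of chromosome 1, the CHA1 end of chromosome 3, CIT2 to SAT4, ECM32, HAP1 to GSY2 from 658000, RAX1, both PUT4 windows from 987500 and 988000, and both windows of OPT2 to SGE1 from 927500 and 928000 of chromosome 16. The SWH1 window held 85 insertions of Cbf1, 35 of Tye7, 13 of Gcr1, 38 of Gcr2 and 60 of Cst6. RAX1, a bud site selection gene, held 34, 13, 51, 29 and 160, so that even these windows differed in share between libraries.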

How the data were processed

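Insertions were mapped in genomic DNA of 12 libraries, 1 per group. Per the submitters' processing notes reads were aligned with Novoalign, and no genome build is stated in the sources used here. The authors deposited, for each library, a list of insertions with a read count per insertion, and region tables with insertion counts (hops) of the library and a background set and a Poisson p-value per region. Recounted insertions equalled the deposited counts in all 4532 regions of all 12 libraries. Window counts were compared in two-sided Fisher's exact tests (SciPy 1.17.1, Python 3.11.15) and adjusted by the Benjamini-Hochberg method. For calls 1 insertion was added to each count. Printed folds are ratios of raw shares. Against 0 insertions a fold is a bound against 3 insertions. Intervals are exact at 95%. The window test was run on simulated counts for Tye7 against Cbf1 only, drawn independently, without the clusters or run differences of the real lists. That simulation therefore does not measure false calls in these data. Gene symbols, gene order and tRNA genes came from the RefSeq R64 table, used for names and order only. Runs are sorted blocks of a list, found from its order. Windows named were the 5 fullest of each library, up to 10 called windows with the largest ratio per comparison and direction, called windows of the 8 gene lists, and windows with at least 10 insertions in all 5 full-length libraries; neighbouring windows of those named were added after their values were seen. The members and lists were chosen with earlier results of these data known. Alternatives are given in the closing section.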

Additional observations from a re-analysis of the deposited data

How the results depend on the processing

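No paired analysis was possible because each group holds 1 library. Merging positions within 5 bp joins neighbouring insertions, so a densely hit window collapses to few by construction (Cbf1 used 331 positions of the SCS3 window). Of the 476 called windows, 423 remained called with the outside insertions as denominator, 467 without the 10 fullest regions in the denominator, 430 with each position counted once, 358 without insertions within 200 bp of a region, 291 with at least 5 reads and 197 with positions merged, where 22 changed direction. Alternatives with runs, each position counted once, and SCS3 left out were chosen after seeing the data. At 3341 insertions, the NPAS2 bHLH library had 1 window with at least 10 insertions outside the regions.

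The count for Tye7 vs Cbf1 was 44 with no minimum of insertions, 30 merged (5 higher, 25 lower), 48 with at least 5 reads and 40 with runs apart. With the outside insertions as denominator, its split was 24 higher and 53 lower in place of 36 and 44, with a log2 shift of -0.60. For Cbf1 bHLH-ZIP vs Cbf1 the count was 7 without the 10 fullest regions (7 higher, 0 lower), 5 with shifted windows, 5 with windows of 1000 bp and 1 without the 200 bp flanks; with the outside insertions as denominator it was 2 higher and 2 lower. Cbf1 bHLH vs Cbf1 bHLH-ZIP gave 11 with at least 5 reads and 9 without flanks, and the Tye7 basic form 0 merged and 13 with at least 5 reads. The NPAS2 comparison gave 15 with at least 5 reads and 15 without flanks. TEF1p-Tye7 vs Tye7 gave 15 with no minimum. TEF1p-Tye7 gcr2D gave 5 with no minimum, 2 merged and 8 with each position counted once (3 higher, 5 lower); its split of 11 higher and 5 lower became 9 and 7 with the outside denominator and 8 and 7 without the 10 fullest regions. Gcr1 vs Gcr2 gave 32 with no minimum, 2 merged and 24 with at least 5 reads, and Cst6 vs Cbf1 121 merged and 155 with at least 5 reads.

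Outside shares changed side of the background when merged for Tye7 (36.7%, adjusted p = 0.249 by Fisher's exact test), TEF1p-Tye7 (39.0%) and TEF1p-Tye7 gcr2D (34.2%), with at least 5 reads for TEF1p-Tye7 gcr2D (33.7%), without flanks for the NPAS2 bHLH-Cbf1 ZIP (25.7% against 26.3%) and TEF1p-Tye7 (27.8%), and with each position counted once for TEF1p-Tye7 gcr2D (36.2%). Only the setting without flanks changed the background set as well. In the other settings a changed library was set against the whole background set. Ratios of first to last part of genes lost their call or turned when merged for Cbf1 (0.952), Tye7 (0.901), Cst6 (0.893), the NPAS2 bHLH-Cbf1 ZIP (1.26), the Tye7 basic form (0.809) and Cbf1 bHLH-ZIP (0.943), with parts of 500 bp for the NPAS2 bHLH (0.866), without genes beside a bound region for Tye7 (0.909), Cst6 (1.05) and the NPAS2 bHLH-Cbf1 ZIP (0.769), without SCS3 for the NPAS2 bHLH (0.750), and with each position counted once for Cst6 (1.02). Window log2 ratios that turned, all when merged, were SCS3 from 271500 in Tye7 vs Cbf1 (0.20), in the Tye7 basic form (0.69) and in Cst6 vs Cbf1 (0.87), SCS3 from 272000 in the Tye7 basic form (0.33), NCE103 to SIW14 in Cbf1 bHLH-ZIP vs Cbf1 (0.61), YSH1 to ECI1 in Cbf1 bHLH (-0.54), and PDR3 to UTP20 (-0.97), VHT1 to ROM1 (-0.12) and HAP1 to GSY2 (1.03) in TEF1p-Tye7 gcr2D. Apart from merging, the cause of these changes was not tested.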

Other observations

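In several long intervals the fullest windows of Gcr1 and TEF1p-Tye7 were neighbours rather than the same window; these intervals were picked after their values were seen, Gcr1 was not tested against TEF1p-Tye7, and the values are a description. In THI72 to PEX27 the window from 709000 of chromosome 15 held 39 insertions of TEF1p-Tye7, 60 of TEF1p-Tye7 gcr2D and 2 of Gcr1, and the next window, from 709500, held 1, 1 and 28. In NCE103 to SIW14 the window from 567000 of chromosome 14 held 71, 92 and 7, and the next, from 567500, held 9, 10 and 69. In POR1 to VAC7 the window from 519500 held 132, 91 and 19, and the one before it, from 519000, held 10, 2 and 47. In IOC4 to NUP116 the window from 362000 of chromosome 13 held 88, 218 and 51, and the next, from 362500, held 19, 26 and 91. Gcr2 had 5 and 11 insertions in the pair of THI72 to PEX27 and 14 and 36 in that of NCE103 to SIW14. In HAP1 to GSY2 the same window, from 651000 of chromosome 12, was the fullest for both Gcr1 and TEF1p-Tye7, with 97, 43 and 259.

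The long interval from NCE103 to SIW14 also held separate windows of Cbf1 and Cst6. From 560500 of chromosome 14 Cbf1 had 132 insertions, Cst6 17 and Tye7 0, and from 569000 Cst6 had 255, Tye7 1 and Cbf1 0.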
